A study of Mus musculus with 4 samples.

Results

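The interleukin-1 (IL-1) family and inflammasome genes described here are the 10 genes Il1a, Il1b, Il1rn, Il18, Il18bp, Il33, Il1r1, Il1rap, Casp1 and Nlrp3. They were chosen by name, by a rule that uses no measured value, from the 20659 genes that could be named on the array, and 12 probes carry them. RNA of lamina propria lymphocytes, cells isolated from the layer beneath the gut epithelium, was labelled with Cy3 and hybridized to 4 one-colour Agilent mouse arrays. All mice were of strain C57BL6 and had received dextran sulfate sodium (DSS), a polymer used to provoke colitis, and their cells were taken on day 10. Genotype (wild type or Stat4 knockout) was crossed with treatment (DSS alone, or DSS plus leukemia inhibitory factor, LIF), and the 4 groups are called WT-DSS, WT-LIF, KO-DSS and KO-LIF below, in which both LIF groups also had DSS. LIF is a secreted cytokine of the interleukin-6 family, and STAT4 is the transcription factor that interleukin-12 activates in T and NK cells. Each group is 1 array, drawn from 5 mice, and the sources used here do not state whether their RNA was pooled, nor the LIF dose, the age of the mice or the Stat4 allele. The protocols also mention mice on mock water, which are not analysed here, so all groups compared had DSS.

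Interleukin-1 beta and interleukin-18 are made as inactive precursors. An inflammasome, in which a sensor such as NLRP3 gathers the protease caspase-1 through the adaptor ASC, cuts both into their active forms. Interleukin-1 alpha and beta signal through the receptor chains IL1R1 and IL1RAP, interleukin-33 is an alarm signal released by damaged barrier cells, and the receptor antagonist encoded by Il1rn and the binding protein encoded by Il18bp hold interleukin-1 and interleukin-18 in check. Because the proteins are activated after translation, mRNA levels report the supply of precursor and enzyme, not the active cytokine.

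Of the 10 genes, 8 were well above background in WT-DSS, 5 in WT-LIF, 6 in KO-DSS and 6 in KO-LIF. Among all named genes the shares were 68.1%, 45.4%, 51.9% and 52.6% in that order. Il1b, Il1rn, Il18 and Casp1 (4 genes) were well above background on all 4 arrays, which 38.9% of all named genes were. Il1a and Il1rap (2 genes) were not well above background on any array. Levels are on a log2 scale, as the processed signal over the 75th percentile of its own array, and a level of one gene is not set against that of another. The ± after a difference is the error that the scanner software assigned to the spots, which was never under 10.0% of the signal for these probes. It covers error within an array only. With 1 array a group no difference has a replicate check, no test was possible and no p-value is given. A gene is counted as higher or lower when it differs at least 2-fold (1 on the log2 scale) with its brightest probe well above background on both arrays.

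The arrays differed in brightness, with 75th percentiles of 122.9, 23.8, 45.3 and 43.3 in the order of groups above. The WT-LIF array stood apart, with a Pearson correlation of 0.800 to 0.818 with the others against 0.951 to 0.980 among the rest, over 12674 probes. The Stat4 probe does not separate the genotypes, so the labels alone give the direction of a genotype difference, and KO arrays are called labelled knockout below. Both comparisons that use WT-LIF rest wholly on that array and have no value without it, while the remaining ones, between genotypes under DSS and for LIF in labelled knockout, do not use it. T cell markers (6 of 6 on the array) were well above background on every array, and so were all 11 epithelial markers. B cell markers were well above background in 5 or 6 of 6 cases per array. In such bulk RNA fewer cells of a type and less RNA per cell cannot be told apart.

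**Figure D1:**
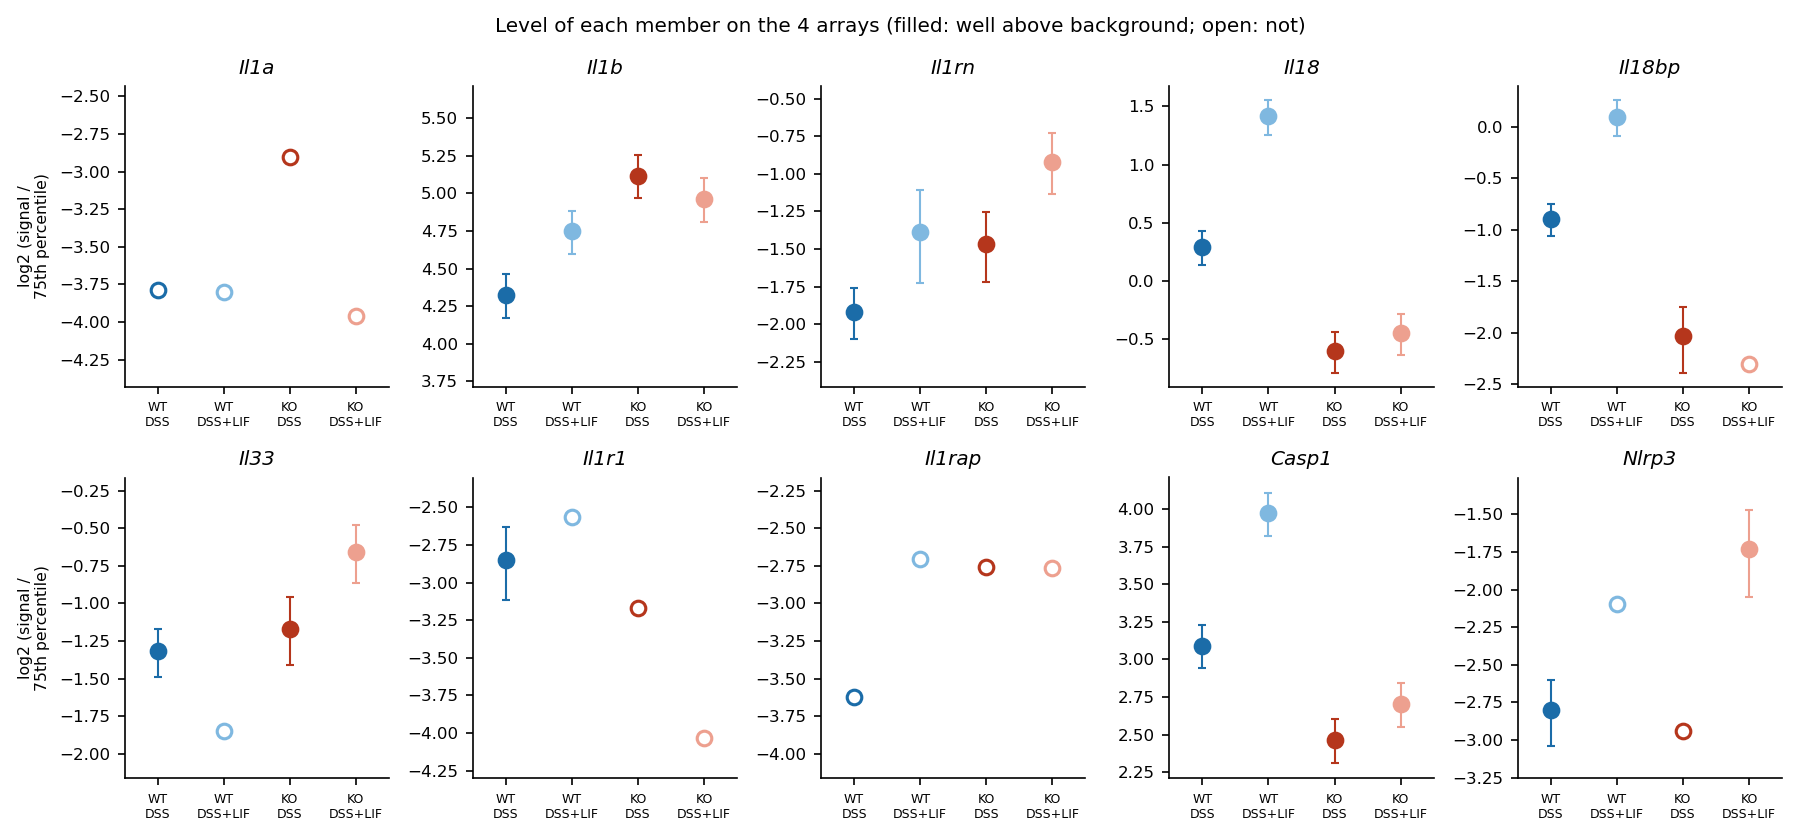
Level of each of the 10 genes on each array (y axis, log2 of the signal over the array's 75th percentile; each panel has its own range), with WT for wild type and KO for labelled knockout. Filled points were well above background and carry the scanner software's error, open points were not; Il18 and Casp1 have their highest point in WT-LIF, and Il1b has its highest in KO-DSS.

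Il1b encodes interleukin-1 beta, the main secreted cytokine of the family in gut inflammation. On the log2 scale its level was 4.32 in WT-DSS, 4.75 in WT-LIF, 5.12 in KO-DSS and 4.96 in KO-LIF. Both labelled knockout arrays were above both wild-type arrays, as was the case for 16.3% of all genes well above background on every array. The probe is printed 10 times on the array, and after removal of flawed spots the SD over 10, 9, 9 and 8 spots was 0.07, 0.03, 0.03 and 0.03. The spots of different arrays did not overlap, with a range of 4.24 to 4.42 in WT-DSS and of 5.05 to 5.17 in KO-DSS. Spots of 1 array are repeated readings of 1 RNA sample and not replicates of a group.

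The difference of Il1b between labelled knockout and wild type was 0.79 ± 0.20 under DSS, or 1.73-fold, and 0.22 ± 0.20 with LIF in both. Neither reached 2-fold. The DSS difference lay between 0.19 and 0.79 over the main values and 8 other ways of processing. The difference under DSS and LIF lay between −0.85 and 0.35, so that its direction turned with normexp, which changes both the signal used (the spot median) and the background correction. Without the scaling to the 75th percentile the Il1b signal was 2463 in WT-DSS, 639 in WT-LIF, 1572 in KO-DSS and 1351 in KO-LIF. Unscaled, WT-DSS was thus the brightest array for Il1b, as it was by the 75th percentile, and the order given above holds relative to each array's own brightness.

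Il1rn encodes the IL-1 receptor antagonist, which occupies the receptor without signalling. Its level was −1.92 in WT-DSS, −1.38 in WT-LIF, −1.47 in KO-DSS and −0.92 in KO-LIF. The WT-LIF value lay close to −1.49, the dimmest signal called well above background on that array. The array with both the knockout label and LIF was the highest and WT-DSS the lowest. The difference between genotypes was 0.45 ± 0.29 without LIF and 0.47 ± 0.36 with it. The LIF difference was 0.54 ± 0.35 in wild type and 0.55 ± 0.31 in labelled knockout. These 4 differences were all above 0 under every processing tried and under 2-fold, except that the LIF difference in labelled knockout reached 1.02 with normexp without offset.

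Set against its antagonist, Il1b stood 0.34 log2 further up than Il1rn in labelled knockout against wild type under DSS, with a range of −0.21 to 0.35 over the ways of processing. The same gap under DSS and LIF was −0.25, between −1.31 and −0.16. It was −0.11 with LIF in wild type, between −1.43 and −0.11, and −0.70 with LIF in labelled knockout, between −2.56 and −0.62. Such a gap between 2 genes on the same arrays does not depend on a constant scaling factor of each array. Median scaling, other background filters and the mean over probes thus cannot move it, as neither gene has a second probe. Of the 4 gaps, the one between genotypes under DSS changed direction over the ways of processing and the other 3 lay below 0 in each.

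Neutrophils are an abundant source of Il1b and Il1rn mRNA in an inflamed gut, and neutrophil markers differed between the arrays in the same direction as Il1b under DSS. Their summed signal, over 13 markers on the array and relative to the 75th percentile, was 557 in WT-DSS, 388 in WT-LIF, 3446 in KO-DSS and 2538 in KO-LIF. Of these markers 9, 7, 10 and 10 were well above background in that order, and Cxcr2, Mmp9 and Ltf were not on any array. S100a8, S100a9 and Retnlg were the brightest markers on every array and weigh most in the sum. Under DSS 8 of 9 measured markers were at least 2-fold higher in labelled knockout, against 13.2% of all measured genes. Under DSS and LIF 7 of 7 were, against 14.2%. Csf3r was the measured marker below 2-fold under DSS, at −0.03 on the log2 scale. The summed signal of 10 macrophage and monocyte markers ran from 23.4 to 27.3 over the 4 arrays. Of these 8 were measured under DSS, with 0 higher and 0 lower, against 13.2% and 6.94% of all measured genes. Under DSS and LIF 6 were measured, with 1 higher (Ccr2, 2.07-fold) and 2 lower (Adgre1, 3.79-fold, and Cx3cr1, 3.28-fold). Of all measured genes 14.2% were higher and 31.3% lower in that comparison. Lyz2 was at least 2.52-fold higher under DSS and LIF. The part of either cell type in the Il1b and Il1rn values was not tested.

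**Figure D2:**
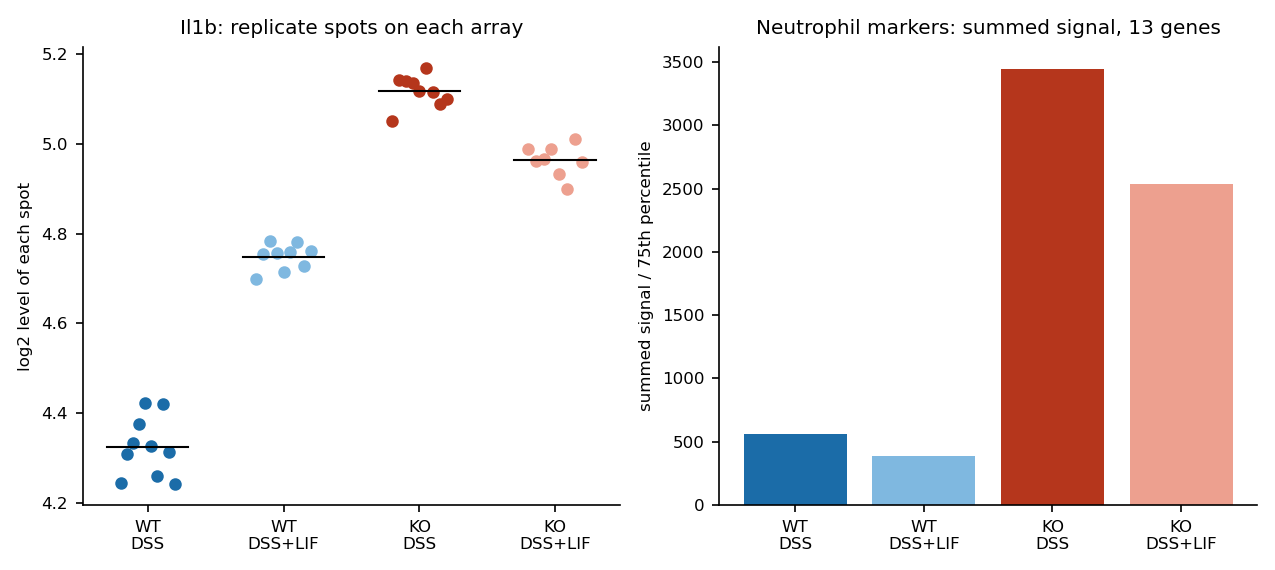
Left, log2 level of every spot of the Il1b probe on each array (y axis not starting at 0), with the mean of the spots as a line. Right, summed signal of the 13 neutrophil markers relative to the 75th percentile of each array; the bars stand at 557, 388, 3446 and 2538, and the spots of the 4 arrays do not overlap.

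Il18 encodes interleukin-18, which epithelial cells and macrophages make constantly and which drives interferon gamma together with interleukin-12. Its level was 0.29 in WT-DSS, 1.42 in WT-LIF, −0.61 in KO-DSS and −0.45 in KO-LIF. Both wild-type arrays were above both labelled knockout arrays, and the labelled knockout arrays differed from each other by 0.15 ± 0.25. The difference between genotypes was −0.89 ± 0.23 under DSS (1.86-fold lower) and −1.87 ± 0.23 under DSS and LIF (3.65-fold lower). Under DSS the value lay between −1.02 and −0.50 over the ways of processing, and under DSS and LIF between −1.96 and −0.65.

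Casp1 encodes caspase-1, the protease that cuts both cytokine precursors. Its level was 3.09 in WT-DSS, 3.97 in WT-LIF, 2.46 in KO-DSS and 2.71 in KO-LIF. The order of the arrays was that of Il18. Labelled knockout was lower by 1.55-fold under DSS (−0.63 ± 0.20) and by 2.41-fold under DSS and LIF (−1.27 ± 0.20). The first value lay between −0.98 and −0.63 and the second between −2.00 and −1.13 over the ways of processing, so the second was at least 2-fold in each of them. Among all genes well above background on every array, 24.1% had both wild-type arrays above both labelled knockout arrays and 20.3% had WT-LIF highest and WT-DSS second, as Il18 and Casp1 had.

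Il18bp encodes the soluble protein that binds and neutralizes interleukin-18. Its level was −0.90 in WT-DSS, 0.10 in WT-LIF and −2.04 in KO-DSS, and its signal in KO-LIF was not well above background. The KO-DSS value lay close to −2.13, the dimmest signal called well above background on that array. WT-LIF was again the highest array. Under DSS labelled knockout was lower by 2.20-fold (−1.14 ± 0.35), a value that shrank to −0.54 with normexp without offset and to −0.02 with normexp at an offset of 50. In KO-LIF against WT-LIF it was at least 4.40-fold lower, a bound set by the dimmest signal that was well above background. Il18 and the protein that restrains it were thus both lower in labelled knockout under DSS, with a gap between them of 0.24 that ranged from −0.48 to 0.24.

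Il1b and Casp1 went apart between the genotypes, and this gap too is free of a constant scaling factor. Under DSS the difference of Il1b exceeded that of Casp1 by 1.42, between 1.18 and 1.48 over the ways of processing. It exceeded it by 1.48 under DSS and LIF, between 1.10 and 1.48. Against Il18 the gap was 1.69 under DSS, between 0.69 and 1.81, and 2.08 under DSS and LIF, between 0.36 and 2.17. Each gap kept its direction with normexp, quantile scaling and the authors' deposited values, and those against Casp1 stayed over 1. The other settings could not move a gap between genes without a second probe.

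The promoters of these genes are shown because Il18, Casp1 and Il18bp shared a direction between genotypes that Il1b did not. Each is the 250 bases before an annotated transcript start in RefSeq on GRCm38.p6, read 5′ to 3′ on the gene's strand, with capitals for letters that match a searched motif.
Il1b, chr2:129371140-129371389, minus strand: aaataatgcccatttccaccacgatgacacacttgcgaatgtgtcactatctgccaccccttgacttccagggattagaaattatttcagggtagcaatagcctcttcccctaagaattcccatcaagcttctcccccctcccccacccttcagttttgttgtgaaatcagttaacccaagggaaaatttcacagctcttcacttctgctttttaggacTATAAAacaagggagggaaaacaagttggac
Il18, chr9:50554450-50554699, plus strand: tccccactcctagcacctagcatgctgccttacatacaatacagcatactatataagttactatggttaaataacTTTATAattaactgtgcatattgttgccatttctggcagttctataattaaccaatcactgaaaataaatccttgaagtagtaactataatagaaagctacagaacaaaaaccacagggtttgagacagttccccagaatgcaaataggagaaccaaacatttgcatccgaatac
Casp1, chr9:5298267-5298516, plus strand: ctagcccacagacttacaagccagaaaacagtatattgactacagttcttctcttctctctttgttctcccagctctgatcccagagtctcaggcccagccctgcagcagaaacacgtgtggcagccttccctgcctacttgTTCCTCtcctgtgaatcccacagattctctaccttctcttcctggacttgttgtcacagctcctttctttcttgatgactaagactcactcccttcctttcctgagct
Il18bp, chr7:102018233-102018482, minus strand: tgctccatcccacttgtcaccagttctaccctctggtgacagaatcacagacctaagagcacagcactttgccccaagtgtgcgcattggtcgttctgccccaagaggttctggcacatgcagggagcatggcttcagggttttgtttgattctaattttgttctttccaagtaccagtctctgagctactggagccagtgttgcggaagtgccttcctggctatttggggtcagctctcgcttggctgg
The capitals in Il1b are a TATA element (TATAAA) 31 to 26 bases before the start. Those in Il18 are the same element on the opposite strand, 175 to 170 bases before the start. Those in Casp1 are the core of a PU.1 element (GAGGAA, read here on the opposite strand) 108 to 103 bases before the start. Il18bp held no match.

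The motifs were searched on both strands in all 15 promoter windows of the 10 genes and in 32851 windows of all genes. The GAS element to which activated STAT dimers bind (TTCNNNGAA) was in 0 of the 15 windows of the 10 genes and in 7.02% of all windows. The interferon-stimulated response element was in 0 of the 15 windows and in 2.98% of all. The AP-1 element (TGANTCA) was in Il1a and Il1rn and in 6.75% of all windows. The NF-kB element was in Il1r1 and Nlrp3 and in 7.25% of all. PU.1 was in Il1a, Casp1 and Nlrp3 and in 23.3% of all, and TATA in Il1a, Il1b, Il18 and Il33 and in 12.4% of all. Several genes have more than 1 window, so the genes named for a motif and the share of windows are not in the same unit. No matches overlapped each other in these windows, and a match is a run of letters, not a shown binding site.

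Il33 encodes interleukin-33, a nuclear alarm signal of stromal and epithelial cells. Its level was −1.32 in WT-DSS, −1.17 in KO-DSS and −0.66 in KO-LIF, and in WT-LIF its signal was not well above background. The difference between genotypes under DSS was 0.15 ± 0.28, within the scanner error. Il33 was at least 1.78-fold higher in labelled knockout under DSS and LIF. Stromal markers had a summed signal of 5.89, 6.16, 17.1 and 10.6 in the order of groups above, with 8 of 9 well above background on each array. Under DSS 4 of 8 measured stromal markers were higher in labelled knockout and 0 lower, against 13.2% and 6.94% of all measured genes. Their part in the Il33 values was not tested.

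The remaining genes lay near background. Nlrp3, the sensor that NLRP3 inflammasomes are named for, had a level of −2.80 in WT-DSS and −1.73 in KO-LIF by its brighter probe, and was not well above background on the other arrays. Its second probe was well above background in WT-DSS alone, at −3.56. Il1r1, which encodes the signalling receptor chain for interleukin-1, was well above background in WT-DSS alone, at −2.85. That array was also the brightest, and the dimmest signal it could call was −3.79, against −1.49 for WT-LIF, −2.13 for KO-DSS and −2.04 for KO-LIF. Il1a, which encodes interleukin-1 alpha, and Il1rap, the shared accessory receptor chain, were not well above background by any of their probes, so a difference of these genes was not detectable on these arrays.

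Taking the 10 genes as a list, 6 were measured in labelled knockout against wild type under DSS. Of these, 0 were at least 2-fold higher, against 13.2% of all measured genes, and 1 (Il18bp) was lower, against 6.94%. Their median difference was −0.24, and that of all 10529 measured genes was 0.07. In the same comparison under DSS and LIF 4 were measured, with 0 higher against 14.2% of all measured genes and 2 (Il18 and Casp1) lower against 31.3%, and Il18bp, bounded, is not in that count. The median was −0.53 over the 4 and −0.45 over all 8348 measured genes, so the middle of all genes lay in the direction of those calls. Relative to that shift Il18 stood at −1.42, Casp1 at −0.82, Il1b at 0.66 and Il1rn at 0.91.

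With LIF in wild type all 5 measured genes had differences above 0, although those of Casp1 and Il1b turned below 0 with normexp. Of the 5 measured genes 1 (Il18, 2.19-fold, 1.13 ± 0.21) was at least 2-fold higher, against 34.4% of all measured genes, and 0 were lower, against 13.7%. Il18bp differed by 0.99 ± 0.23, Casp1 by 0.88 ± 0.20 and Il1b by 0.42 ± 0.20. The Casp1 value was −0.15 with normexp at an offset of 50, and that of Il1b was −0.76 there and −0.05 without offset. The median over all 8983 measured genes was 0.57, and relative to it Il18 stood at 0.56, Il18bp at 0.42, Casp1 at 0.31, Il1rn at −0.03 and Il1b at −0.15. Il33 was at least 1.13-fold lower. Epithelial markers, whose cells are a known source of Il18, had a summed signal of 171 in WT-DSS, 369 in WT-LIF, 204 in KO-DSS and 182 in KO-LIF. Of the 11, 3 were higher with LIF in wild type (Clca1, Tff3 and Krt20) and 3 lower (Epcam, 6.23-fold, Krt19, 3.17-fold, and Krt8, 2.94-fold). T cell markers had 12.4, 24.8, 9.37 and 10.1 in the same order. Of the 6, 1 reached 2-fold with LIF in wild type (Cd4, 1.78 on the log2 scale), while Cd3g differed by 0.02, Cd5 by 0.01 and Cd8a by −0.52. The part of either cell type in the Il18 and Casp1 values was not tested.

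LIF in labelled knockout went with small differences. Of 5 measured genes 0 were at least 2-fold higher, against 3.22% of all measured genes, and 0 were lower, against 3.07%. The values were −0.15 ± 0.20 for Il1b, 0.15 ± 0.25 for Il18, 0.24 ± 0.20 for Casp1, 0.51 ± 0.29 for Il33 and 0.55 ± 0.31 for Il1rn, with a median of 0.24 against −0.01 over all 9781 measured genes. Only the last 3 exceeded the scanner error. The Casp1 value turned to −0.35 and −0.76 with normexp at an offset of 50 and without offset, where Il1b reached −1.03 and −1.54. Nlrp3 was at least 1.32-fold higher with LIF.

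The LIF difference in labelled knockout minus that in wild type was −0.98 for Il18, −0.64 for Casp1, −0.58 for Il1b and 0.01 for Il1rn. None of the 4 genes (0 of 4) differed by 1 or more, whereas 16.7% of 8039 genes did upward and 33.4% downward. Those 4 values use all 4 arrays and had no test.

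**Figure D3:**
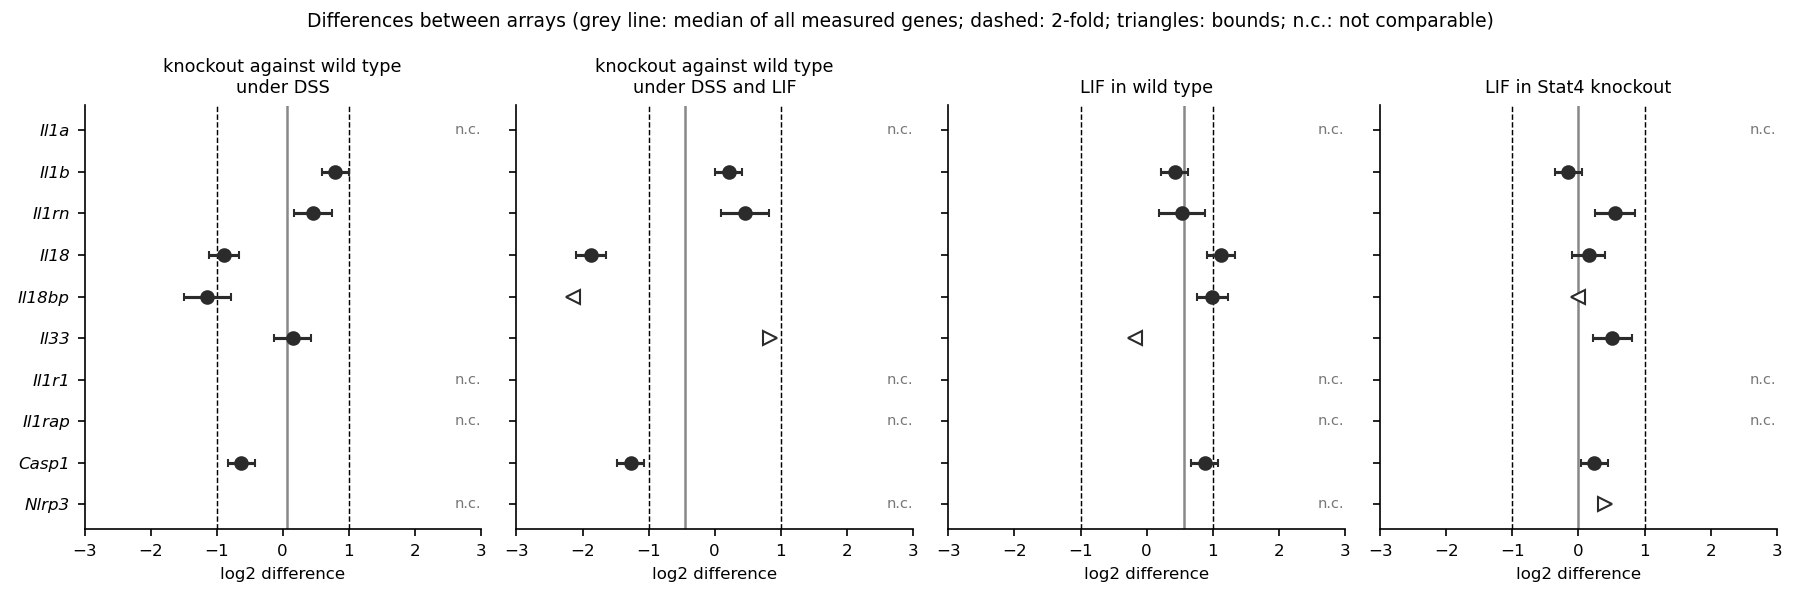
Log2 difference of each of the 10 genes in the 4 comparisons (x axis), first group minus second as titled, with the scanner software's error within arrays as bars; triangles are bounds and n.c. marks genes dim on both arrays or without a usable bound. The grey line is the median of all measured genes and the dashed lines mark 2-fold, which Il18 and Casp1 pass between genotypes with LIF and Il18bp passes without LIF.

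Across the 4 arrays the profiles of the 4 genes measured everywhere fell into pairs by the main values. After each gene's mean was taken off, the root mean square difference of log2 levels was 0.24 between Il18 and Casp1 and 0.25 between Il1b and Il1rn. Between the pairs it ran from 0.72 (Il1rn and Casp1) to 0.98 (Il1b and Il18). The pair of Il1b and Il1rn did not hold with normexp, where their difference grew to 0.71 at an offset of 50 and 0.99 without offset, against 0.65 and 0.72 between Il1b and Casp1. Il18 and Casp1 stayed nearest to each other there, at 0.35 and 0.44. Among 8038 other genes the profiles nearest to Il1b by this measure were those of Elof1 (0.03), Hbp1 (0.03), Nr1h2 (0.04), Cep164 (0.05) and Pabpc1l (0.06). Nearest to Il1rn were Mboat2 (0.02), Cdk18 (0.06), Vangl2, Degs2 and Rpap1 (0.07 each). With 4 points per gene many profiles lie close together, and these are descriptions over 4 arrays.

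Values of the wider lists that follow are main values alone and were not put through the other ways of processing. Other ligands of the family were mostly dim. Of 5 on the array, Il1f6, which encodes interleukin-36 alpha, was the only one measured under DSS and was 3.11-fold higher in labelled knockout, at −1.69 against −3.33 in wild type. Il1f9, which encodes interleukin-36 gamma, was at least 3.51-fold higher there, at −1.98. Among 8 other receptors 4 were measured under DSS, with 2 higher and 1 lower in labelled knockout, against 13.2% and 6.94% of all measured genes. Il1r2, the decoy receptor that takes up interleukin-1 without signalling, was 7.32-fold higher. Its levels were −3.18 in WT-DSS, −0.31 in KO-DSS and −0.35 in KO-LIF. The folds of Il1r2 and Il1f6 both use a WT-DSS level near background. The dimmest signal called well above background in WT-DSS was −3.79. Il18r1, the ligand-binding chain of the interleukin-18 receptor, was 4.02-fold higher. Il1rl1, the receptor for interleukin-33, was lower by 2.05-fold under DSS and 2.70-fold under DSS and LIF, with levels of 2.60, 2.61, 1.57 and 1.18 in the order of groups above. Sigirr, an inhibitory receptor of the family, was 2.11-fold lower in labelled knockout under DSS and LIF and 2.75-fold higher with LIF in wild type.

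Other inflammasome and pyroptosis genes split in both directions. Under DSS 16 of 21 on the array were measured, with 3 higher and 2 lower in labelled knockout and a median of −0.21, where 13.2% of all measured genes were higher and 6.94% lower. Card9, an adaptor downstream of fungal receptors, was 4.31-fold higher under DSS but 2.12-fold lower under DSS and LIF. Mefv, which encodes the sensor pyrin, differed by 1.25 on the log2 scale under DSS. Nek7, a kinase that binds NLRP3, differed by −1.17 under DSS and, in the opposite direction, by 2.20 under DSS and LIF. In the comparison with LIF 14 were measured, with 5 higher and 4 lower and a median of −0.18, against 14.2% and 31.3% of all measured genes. Pycard, which encodes the adaptor ASC between sensor and caspase-1, was 3.59-fold lower there (0.73 in wild type, −1.11 in labelled knockout) and 1.30-fold lower under DSS, which was under the threshold. Casp4, the mouse gene of caspase-11 that senses bacterial lipopolysaccharide, had levels of 1.85, 2.28, 1.27 and 2.14 in the order of groups above and differed less than 2-fold in all 4 comparisons. Gsdmd, whose product forms the pyroptotic pore, was 2.04-fold higher with LIF in wild type and was not well above background in either labelled knockout array. Its level of −1.48 in WT-LIF lay close to −1.49, the dimmest signal called well above background on that array. The counts hold Naip1 and Naip6, sensors of bacterial proteins, which were at −1.44 (Naip1) under DSS and at 1.78 (Naip1) and −2.31 (Naip6) under DSS and LIF. They belong to a cluster of near-identical copies, so a probe may bind more than one of them and these values are uncertain. With LIF in wild type 4 of 15 measured genes of the list were higher, against 34.4% of all measured genes, and 2 lower, against 13.7%. They were led by Nek7 (−2.72) and Naip6 (2.44), followed by Naip1 (−1.99) and P2rx7, a channel opened by ATP upstream of NLRP3 (1.38). With LIF in labelled knockout 2 of 16 were higher, against 3.22% of all measured genes, and 1 lower, against 3.07%. These were Naip5 (1.28), Naip1 (1.22) and Card9 (−2.03). Naip5 belongs to the same cluster as Naip1, so both higher values are uncertain and may not be separate signals.

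Of 16 genes of IL-1 receptor signalling on the array 13 were measured under DSS. In labelled knockout 1 was higher, against 13.2% of all measured genes, and 0 lower, against 6.94%, with a median of 0.03. The gene that was higher was Irak2, a kinase of the receptor complex, with levels of 5.46, 6.70, 7.99 and 6.37 in the order of groups above. Under DSS and LIF 11 were measured, with 2 higher and 2 lower, against 14.2% and 31.3% of all. Tollip, an inhibitor of the receptor complex, had a level of 3.77 in WT-LIF and between 0.11 and 0.36 on the other arrays, so its 12.7-fold lower value in labelled knockout under DSS and LIF rests on the array that stood apart. Nfkb1, which encodes an NF-kB subunit, was lower there by 3.64-fold, and Ikbkb, a kinase that activates NF-kB, differed by 2.80 and Tab2, an adaptor of the kinase TAK1, by 1.04. With LIF in wild type 4 of 12 measured genes were higher and 1 lower, against 34.4% and 13.7% of all, led by Tollip (3.59), the ubiquitin ligase gene Traf6 (2.92), Ikbkb (−2.02) and Nfkb1 (1.40). With LIF in labelled knockout 0 of 13 were higher, against 3.22% of all measured genes, and 1 lower, against 3.07%, which was Irak2 (−1.61).

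Among 12 genes known to respond to IL-1, 6 were measured under DSS, with 3 higher and 1 lower in labelled knockout and a median of 1.01 against 0.07 over all measured genes, of which 13.2% were higher and 6.94% lower. Saa3, an acute-phase gene, was 16.1-fold higher, Lcn2, which encodes the iron-binding protein lipocalin-2 and is also a neutrophil marker, 4.07-fold and the neutrophil chemokine gene Cxcl1 2.10-fold. Ccl2, a chemokine gene for monocytes, was 2.15-fold lower. Under DSS and LIF 4 were measured and 3 were higher, against 14.2% of all measured genes. These were Cxcl2, Lcn2 (2.76-fold) and Cxcl5 (2.04-fold). Cxcl2, another neutrophil chemokine gene, had levels of 1.06 in WT-DSS, −1.41 in WT-LIF, 2.01 in KO-DSS and 2.14 in KO-LIF. It was thus 11.7-fold higher in labelled knockout under DSS and LIF and 5.53-fold lower with LIF in wild type. Both folds rest on the WT-LIF array, where the Cxcl2 level lay close to −1.49, the dimmest signal called well above background there. With LIF in wild type 3 of 4 measured genes were lower (Cxcl2, Cxcl5 and Ccl2), against 13.7% of all measured genes. The median of the 4 was −1.49, against 0.57 over all measured genes, and Cxcl1 was at least 5.72-fold lower. Icam1, which encodes an adhesion molecule for leukocytes, was at least 5.45-fold higher with LIF in wild type. Its level was −1.34 in WT-LIF, also close to the dimmest signal called there, and it was not well above background on the other arrays. With LIF in labelled knockout 0 of 6 were higher and 0 lower, against 3.22% and 3.07% of all measured genes. Il6, Csf3 and Ptgs2 were measured in none of the 4 comparisons. The summed neutrophil signal given above was also higher in both labelled knockout arrays, and its part in the values of these genes and of Il1r2 was not tested.

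Among 5 genes known to respond to interleukin-18, Ifng, the gene of interferon gamma, had levels of 0.36 in WT-DSS, 1.62 in WT-LIF and −1.84 in KO-LIF, and was not well above background in KO-DSS. The array with the highest Ifng level was also the one with the highest Il18 level. Ifng was at least 5.63-fold lower in labelled knockout under DSS and 11.0-fold lower under DSS and LIF. The latter fold uses the WT-LIF array, which stood apart. The KO-LIF level in it lay close to −2.04, the dimmest signal called well above background in KO-LIF. Under DSS 4 of the 5 were measured, with 0 higher, against 13.2% of all measured genes, and 1 lower, against 6.94%. Under DSS and LIF 5 were measured, with 1 higher and 2 lower, against 14.2% and 31.3% of all measured genes. Gzmb, which encodes the killer cell protease granzyme B, was 1.95-fold lower under DSS and 2.01-fold lower under DSS and LIF. Fasl, which encodes the death ligand of killer cells, was 2.03-fold lower under DSS, 2.02-fold higher under DSS and LIF and 4.57-fold lower with LIF in wild type, so its direction differed between the comparisons. Ifng was 2.39-fold higher with LIF in wild type. T cell markers also had their highest summed signal in WT-LIF, although only 1 of 6 (Cd4) was at least 2-fold higher with LIF in wild type. Their part was not tested. The list holds Stat4 itself, the gene of the knockout label, whose probe is described above. Stat4 is in the number measured in both genotype comparisons and stayed under 2-fold in each (0.80 and −0.70 on the log2 scale).

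**Figure D4:**
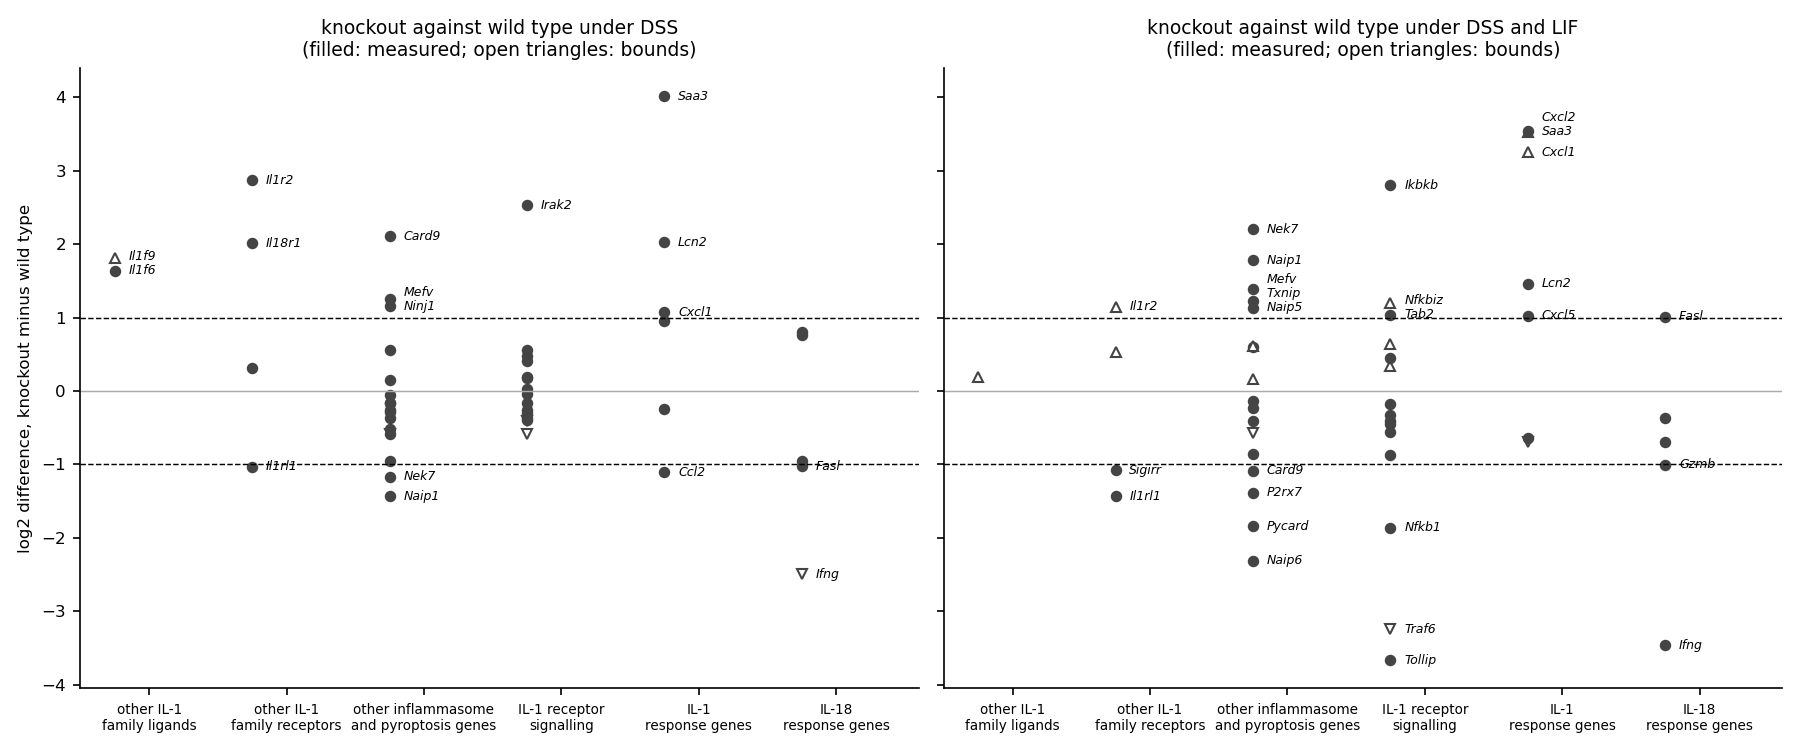
Log2 difference of labelled knockout minus wild type (y axis) for the genes of 6 wider pathway lists under DSS (left) and under DSS and LIF (right), with genes named from 2-fold on (dashed lines). Filled points were measured on both arrays and open triangles are bounds; Saa3, Il1r2 and Irak2 stand above 2-fold on the left, and Ifng, Tollip and Pycard below it on the right.

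**Figure D5:**
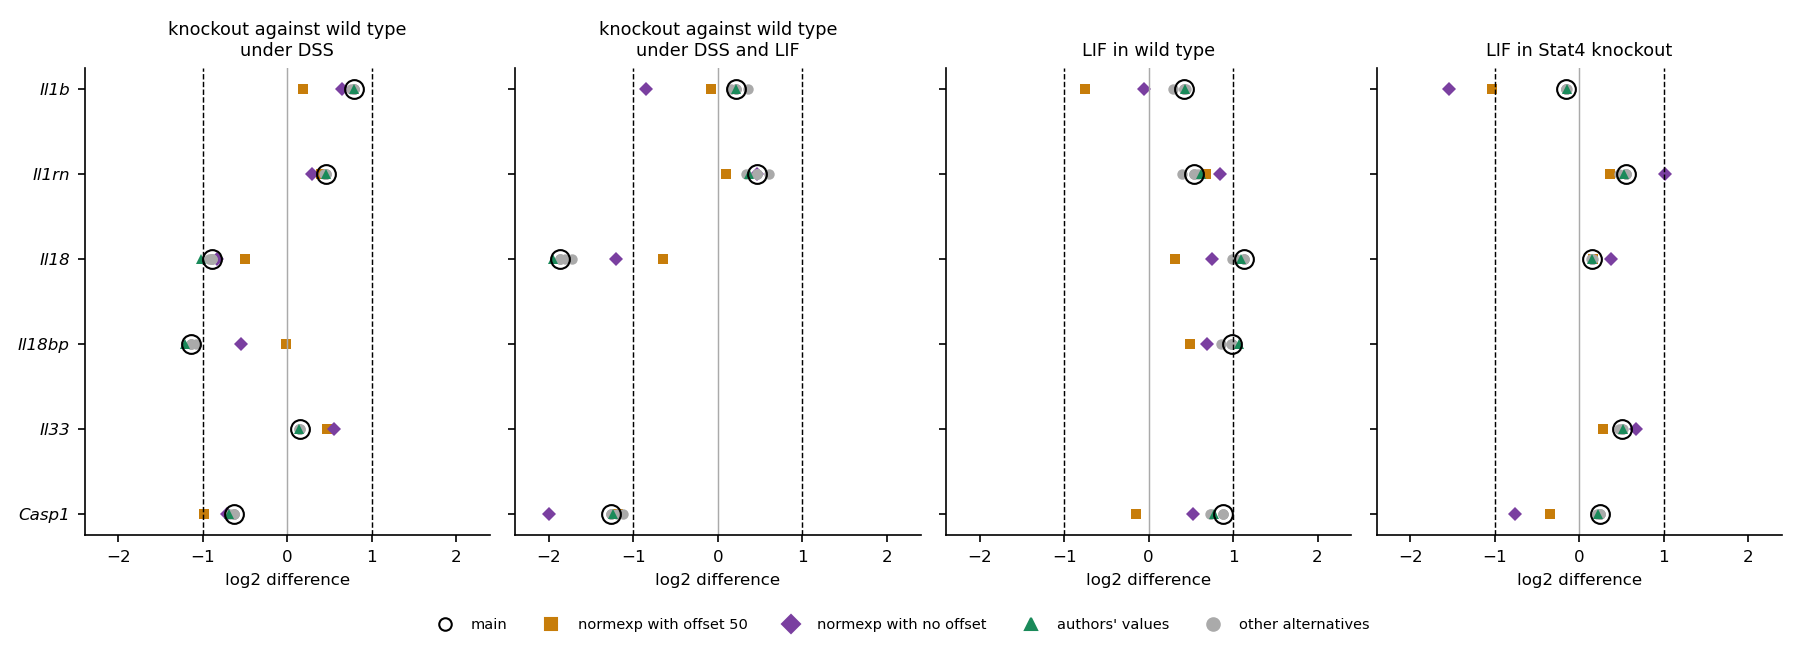
Log2 difference of 6 of the 10 genes in the 4 comparisons (x axis) under the main values (open circles) and under each other way of processing, with dashed lines at 2-fold. Casp1 lies between −2.00 and −1.13 between genotypes with LIF, whereas Il1b lies on both sides of 0 there and with LIF in wild type.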

How the data were processed

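The authors read spot intensity with Agilent Feature Extraction (version 11.0.1.1 per the file headers, 9.1 in the submitters' processing notes). Its processed signal, with the background taken off, was used as deposited, per the file headers. A second deposited table by the authors holds normalized log2 values of the same arrays, whose column medians were 3.31, 2.54, 3.31 and 3.31. Their scaling and floor are not stated in the sources used here, and they served as an alternative. All columns shared an upper quartile of 5.85 and a highest value of 17.5, as columns do after quantile scaling. At the lowest value of its column stood 27.0%, 51.2%, 41.7% and 36.2% of probes, in the order of groups above. This alternative may thus repeat much of the quantile one.

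Each array had 43020 non-control spots of 39429 probes, of which 0 probes were saturated. Spots marked non-uniform or as population outliers were left out, log2 signals of the rest were averaged per probe, and the 75th percentile of each array was taken off. The software's mark for well above background had to be on 50% or more of a probe's spots. RefSeq accessions, matched without versions to a GRCm38.p6 table, named 27234 probes (69.1%), and the brightest probe of a gene by its mean over the 4 arrays stood for it. A gene dim on 1 array received a bound, taken against the dim value or, where higher, the dimmest value well above background there. No test was possible with 1 array a group. Every one of the 10 genes is named, and of the wider lists up to 4 measured genes at least 2-fold apart per comparison. Other genes of those lists that are named, among them bounded ones and Casp4, were chosen after their values were seen. The rule for the 10 genes uses no measured value, but the genes and lists were chosen with earlier results of these data known. The counting steps were checked on simulated data. Only wild type and labelled knockout under DSS shared a scan, so scan and group cannot be told apart in the other comparisons. Alternatives were normexp on median signals (offset 50 or none), quantile and median scaling, other background filters, the mean over probes, and the deposited values. Folds, counts and summed signals of the wider lists and cell markers were taken from the main values alone. Python 3.11.15, R 4.3.3 and limma 3.58.1 were used.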

Additional observations from a re-analysis of the deposited data

Results flagged for a closer look

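Il1b differed in direction between the genotypes with LIF. It was 0.42 higher with LIF in wild type and 0.15 lower in labelled knockout (−0.15), so the LIF difference in labelled knockout minus that in wild type was −0.58. Each side is 1 pair of arrays and the difference was not tested. Relative to the median of all measured genes Il1b stood at −0.15 in wild type and −0.14 in labelled knockout, so the opposite directions are not there on that scale. The −0.15 in labelled knockout is also within its scanner error of 0.20. With normexp the LIF difference in wild type also lay below 0.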

How the results depend on the processing

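Over 20 differences of single genes there were 156 alternative values, of which 145 kept their direction and side of 2-fold or, below 2-fold, stayed below it. Of the rest 6 dropped below 2-fold and 5 reached it, and no called difference turned its sign. Part of the 145 could not move, because no measured gene has a second probe. These are 20 values without a background filter, 20 with the mean over probes and 16 with only probes well above background everywhere. Each repeats the main value and says nothing about its stability. Il18bp under DSS dropped to −0.02 and −0.54 with normexp at an offset of 50 and without offset. Il18 dropped to −0.65 under DSS and LIF between genotypes (offset 50), and with LIF in wild type to 0.31 (offset 50), 0.75 (no offset) and 0.99 (median scaling). Of 72 alternative counts 54 stayed and 18 moved. Genes lower between genotypes under DSS (1) became 0 with either normexp and with only probes well above background everywhere, and 2 with the authors' deposited values. Under DSS and LIF the count lower (2) became 1 with normexp at an offset of 50 and 4 without a background filter, where the count higher (0) became 1. With LIF in wild type the count higher (1) became 0 with either normexp and with median scaling, and 2 with the authors' values. With LIF in labelled knockout the count higher (0) became 1 with normexp without offset and without a filter, and the count lower (0) became 1 with either normexp and without a filter. The count whose LIF differences differ by 1 or more (0) became 2 with normexp without offset and 4 without a filter. With only probes well above background everywhere, 4 genes instead of 6 were measured under DSS, and Il18bp was not among them. Without a filter all 10 genes were counted, dim ones included. The cause of the moves with the other settings was not tested. No paired analysis was possible because the labels give no replicate numbers and each group has 1 array. Median scaling moved the median of all genes from 0.57 to 0.43 with LIF in wild type and from −0.45 to −0.31 between genotypes under DSS and LIF. The number of arrays limits every value, and the signal near background of Il1a, Il1r1, Il1rap and Nlrp3 limits what can be said of them. Il1rn in WT-LIF and Il18bp in KO-DSS also lay close to the dimmest signal called on those arrays, which limits the differences that use them.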
